A study of Mus musculus with 9 samples.

Results

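The genes described here build and run the DNA replication machinery: they load the helicase at replication origins, switch it on, and copy DNA at the moving fork. The set was the 42 genes of a list of origin, helicase, polymerase, clamp and chromatin assembly genes that could be matched by symbol, out of 23946 genes in the expression table. All 42 symbols were found. RNA was sequenced from CD8 T cells of mice in 3 groups of 3 libraries. The groups were WT (genotype wild type), CTCF KO (genotype CTCF-/-, from Ctcf-floxed mice) and DKO (genotype Tcf1-/-Lef1-/-, from mice with both genes floxed). The design names hCD2-Cre, which drives recombination in lymphoid cells, and Rosa26-lsl-GFP, a reporter that Cre turns on, as carried by the donor mice, and GFP+ cells were sorted in every group. Naive CD8 T cells from spleen were stained with the division-tracking dye CTV and transferred into Rag1 KO recipients, which lack T and B cells of their own but keep innate cells. At 72 h, CTV+TCRbeta+GFP+CD8+ cells were sorted from the recipient spleens, so each library holds the cells of all division numbers that were CTV+ at that time. The source names also carry the word stim, with no stimulus described other than the transfer. The labels give neither the age of the mice nor whether each library was made from its own animal.

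Replication starts when the origin recognition complex and Cdc6 recruit Cdt1 with the Mcm2-7 ring, the core of the replicative helicase, onto DNA in G1. Cdc7 with Dbf4, and Cdk2 with cyclin E, then allow Cdc45 and the GINS complex to join the ring, and polymerase alpha with primase starts each new strand for polymerases epsilon and delta. Resting T cells carry little of this machinery and build it as they enter the cell cycle, largely through E2F transcription factors, and T cells moved into an empty host divide in response to self peptide and cytokines such as IL-7.

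Promoter letters were read for the set first, because E2F factors are the textbook regulators of these genes. Promoters were taken from RefSeq on GRCm38.p6 as 300 bases, from 250 before to 50 after the start of the gene, and 33 of the 42 genes had an entry there, with 39 windows in all. An E2F octamer (TTTCCCGC, TTTCGCGC, TTTGCCGC or TTTGGCGC, searched on both strands, with overlaps allowed) stood in the windows of 14 of the 33 genes, which is 42.4%. The same octamers stood in 2.26% of all 32851 windows of this length and in 388 of 7760 tested genes (5%). Short stretches around the octamers are shown 5′ to 3′ on the strand where the octamer reads forward, with the octamer in capitals, so that their variants and flanks can be compared:
Cdc6 (chr11:98908007-98908026, minus strand): aggcgaTTTCCCGCtctcca
Mcm5 (chr8:75109350-75109369, plus strand): aagaacTTTCGCGCcaaaac
Mcm5 (chr8:75109354-75109373, minus strand): ggacgtTTTGGCGCgaaagt
Mcm6 (chr1:128359739-128359758, minus strand): gacgggTTTGGCGCgaagta
Mcm7 (chr5:138171854-138171873, minus strand): acgacgTTTCGCGCcaattt
Lig1 (chr7:13278846-13278865, minus strand): cacagaTTTCGCGCgcactt
Pola1 (chrX:93632280-93632299, plus strand): agtgcaTTTGGCGCcctgtg
Pole2 (chr12:69228167-69228186, plus strand): tcgcgaTTTGGCGCcaccgc
Cdt1 (chr8:122568041-122568060, plus strand): taccttTTTGGCGCcatggc
The Mcm5 pair overlaps, because its octamers read on opposite strands of the same stretch. Cdt1, whose RNA level was the closest to WT in DKO, and Cdc6, whose RNA level fell most, both had an octamer. Whether any factor bound these letters was not measured.

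The whole windows of 3 of these genes are shown on the strand of the gene, with every base of an E2F octamer on either strand in capitals. They were chosen to set the gene with the largest loss in DKO (Cdc6) beside the helicase subunit with the most octamers (Mcm6) and the gene at its WT level (Cdt1).
Cdc6 (chr11:98907901-98908200, plus strand): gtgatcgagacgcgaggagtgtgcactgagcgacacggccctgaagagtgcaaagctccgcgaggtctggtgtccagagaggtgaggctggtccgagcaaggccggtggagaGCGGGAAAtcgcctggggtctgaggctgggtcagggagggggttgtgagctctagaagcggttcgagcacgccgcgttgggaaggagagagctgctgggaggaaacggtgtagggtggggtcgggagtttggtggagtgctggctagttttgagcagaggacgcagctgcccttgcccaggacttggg
Mcm6 (chr1:128359656-128359955, minus strand): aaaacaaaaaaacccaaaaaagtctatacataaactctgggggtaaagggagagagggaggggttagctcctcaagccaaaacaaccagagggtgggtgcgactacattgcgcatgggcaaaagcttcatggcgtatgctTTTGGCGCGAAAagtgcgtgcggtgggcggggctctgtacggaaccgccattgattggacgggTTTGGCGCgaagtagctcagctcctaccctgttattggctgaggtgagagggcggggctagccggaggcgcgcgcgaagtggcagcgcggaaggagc
Cdt1 (chr8:122567765-122568064, plus strand): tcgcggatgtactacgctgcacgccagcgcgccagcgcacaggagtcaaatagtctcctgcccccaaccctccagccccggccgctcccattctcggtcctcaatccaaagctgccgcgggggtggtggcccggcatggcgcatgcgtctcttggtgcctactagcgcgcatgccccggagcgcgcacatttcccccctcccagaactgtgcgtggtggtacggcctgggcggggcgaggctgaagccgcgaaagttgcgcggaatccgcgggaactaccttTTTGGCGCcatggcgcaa
Of the other motifs searched on both strands, a CCAAT box (CCAAT) stood in 57.6% of the 33 genes against 43.5% of the tested genes with a window. A CHR element (TTTGAA or TTCGAA) stood in 27.3% against 16.7%, and a GC box (GGGCGG) in 78.8% against 69.3%. A Tcf/Lef motif (CTTTGAA or CTTTGAT, of which CTTTGAA contains a CHR element) stood in 3 of the 33 genes (9.09%) against 7.16%. The median log2 fold change in DKO against WT was -1.22 for the 14 genes with an E2F octamer and -1.01 for the 19 genes without one. The values ran from -3.16 to 0.00 with an octamer and from -2.94 to -0.34 without. For the CCAAT box the medians were -1.16 with and -0.99 without, and for the GC box -0.99 with and -1.21 without. For the CHR element and for the Tcf/Lef motif they were -1.06 with and -1.03 without. These splits were not tested.

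Values are FPKM, fragment counts divided by transcript length and by the size of the library, so they can be compared between genes. The summed expression of a library lay between 629663 and 702470 FPKM. Depth is unknown, because no read counts were available. Ctcf itself was not called lower in CTCF KO (23.9 ± 7.70 FPKM in WT and 18.3 ± 1.64 in CTCF KO; mean ± SD, n = 3 libraries here and below). Its single values were 18.6, 20.3 and 32.7 FPKM in WT and 20.2, 17.1 and 17.6 in CTCF KO. The higher WT mean thus rested on WT library 3. Tcf7, which encodes Tcf1, was higher in DKO (257 ± 6.43 and 342 ± 11.3), and Lef1 was lower (346 ± 12.4 and 90.7 ± 4.41), so the libraries are named by their labels; reads from exons outside the floxed part would still count. Markers of CD8 T cells summed to between 4942 and 6230 FPKM in every library, and Cd4 stayed at or below 0.985. The single CD8 T cell markers did move: of 6 tested, 1 was higher in CTCF KO, and in DKO 2 were lower and 4 higher. Neutrophil markers followed the same order as many replication genes: 6 of the 8 were tested, and all 6 were called lower in both mutant groups. Of these, Ngp, Ltf, Lcn2 and Camp reached 1 FPKM only in the WT libraries. They passed the filter on low values through WT alone, so their calls as lower were partly set by the filter. S100a8 and S100a9 also had more than 1 FPKM in every CTCF KO library. The neutrophil list summed to between 43.5 and 56.7 FPKM in WT, 15.1 and 18.8 in CTCF KO and 0.841 and 1.56 in DKO. Elane was listed at 0 throughout and Mpo at most at 0.113. Of the other marker lists, 2 of 2 tested B cell markers, 1 of 3 NK cell markers and 1 of 5 macrophage and monocyte markers were lower in CTCF KO. In DKO, 1 B cell marker was lower and the other higher, 1 NK cell and 1 macrophage and monocyte marker were lower, and 1 of 5 erythroid markers was higher. The B cell marker Cd22 and the NK cell marker Klre1, lower in both mutant groups, would not have passed the filter without the WT libraries. Beside these marker counts, 6.37% of all tested genes were called lower and 5.78% higher in CTCF KO, and 21.9% and 18.5% in DKO. The B cell list summed to between 58.2 and 62.1 FPKM in WT, 34.1 and 37.7 in CTCF KO and 99.5 and 118 in DKO, and the NK cell list to at least 8.62 in WT and at most 3.35 in the mutant groups. The NK cell difference came mainly from Klre1, with means of 9.35 FPKM in WT, 0.678 in CTCF KO and 0.601 in DKO. The NK cell markers Ncr1 and Klrb1c overlapped between WT and both mutant groups. The part of these other cells in the results was not tested. Y-linked genes summed to between 90.0 and 101 FPKM in CTCF KO and to at most 2.03 in the other groups, so the sex of the cells and the loss of CTCF cannot be told apart. A GC-rich index set genes whose transcripts hold a 100-base window of at least 80% GC against the other genes of the same library. It was the mean log2 deviation of the GC-rich genes from their average over all libraries, minus that of the other genes. The index was 0.41, 0.53 and 0.39 in the DKO libraries, -0.58, -0.20 and 0.16 in WT, and 0.05, -0.34 and -0.41 in CTCF KO. On this index the WT libraries were spread out with library 3 the highest, and CTCF KO library 1 lay above the other CTCF KO libraries. Genes whose values were set by these libraries are also given without them.

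Nearly all of the set was lower in DKO than in WT, and the set was only slightly lower in CTCF KO. In DKO, 39 of the 42 genes fell and none rose (limma on log2(FPKM + 1), Benjamini-Hochberg adjusted p under 0.05 over all 10172 tested genes), against 21.9% of all tested genes called lower and 18.5% called higher. In 25 of them the fall was at least 2-fold. The median log2 fold change of the 42 genes was -1.14, from -3.16 for Cdc6 to 0.00 for Cdt1, while the median over all tested genes was 0.01. In 39 of the 42 genes every DKO library lay below every WT library, which held for 27.3% of all tested genes, and none lay wholly above, which held for 26.8%. The 3 genes that were not called were Cdt1, Ccne1 and Chaf1a. In bulk RNA, fewer cells with an active replication programme and less RNA per cell cannot be told apart. All 42 genes passed the filter of 1 FPKM in at least 3 libraries, and all 42 had at least 1 FPKM in each WT and CTCF KO library.

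In CTCF KO, 10 of the 42 genes fell and none rose, against 6.37% of all tested genes called lower and 5.78% called higher. The median log2 fold change was -0.21, from -0.68 for Mcm10 to 0.22 for Mcm2, against 0.01 over all tested genes. Of the 42 estimates, 35 were negative, against 49.0% of all tested genes. The 10 genes were Dbf4, Rpa2, Pcna, Mcm10, Gmnn, Mcm6, Cdc45, Lig1, Rfc5 and Pola1, with adjusted p from 0.00336 for Dbf4 to 0.0384 for Pola1. Every CTCF KO library lay below every WT library in 18 of the 42 genes, against 14.4% of all tested genes, and above in 3 (Mcm2, Pold1 and Pole2), against 16.0%. The count of 10 dropped to 4 (Dbf4, Rpa2, Pcna and Mcm10) without CTCF KO library 1, CTCF KO library 2, WT library 1 or WT library 2, and was 9 without WT library 3. It was also 4 with each library centred on its median or with no filter on low values, and 14 with array weights, where Mcm7, Gins3, Rfc3 and Rpa3 were called lower as well.

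Setting the mutant groups directly against each other, 38 of the 42 genes were lower in DKO than in CTCF KO and none was higher, against 21.8% and 16.2% of all tested genes. The exceptions were Cdt1, Ccne1, Chaf1a and Gins3, a GINS subunit. The median log2 difference was -0.95, and 20 genes were at least 2-fold lower. Every DKO library lay below every CTCF KO library in 39 of the 42 genes, against 28.3% of all tested genes, and above in none, against 24.2%. The comparisons of CTCF KO and of DKO with WT share the WT libraries, so their values are given side by side below without a measure of likeness.

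**Figure D1:**
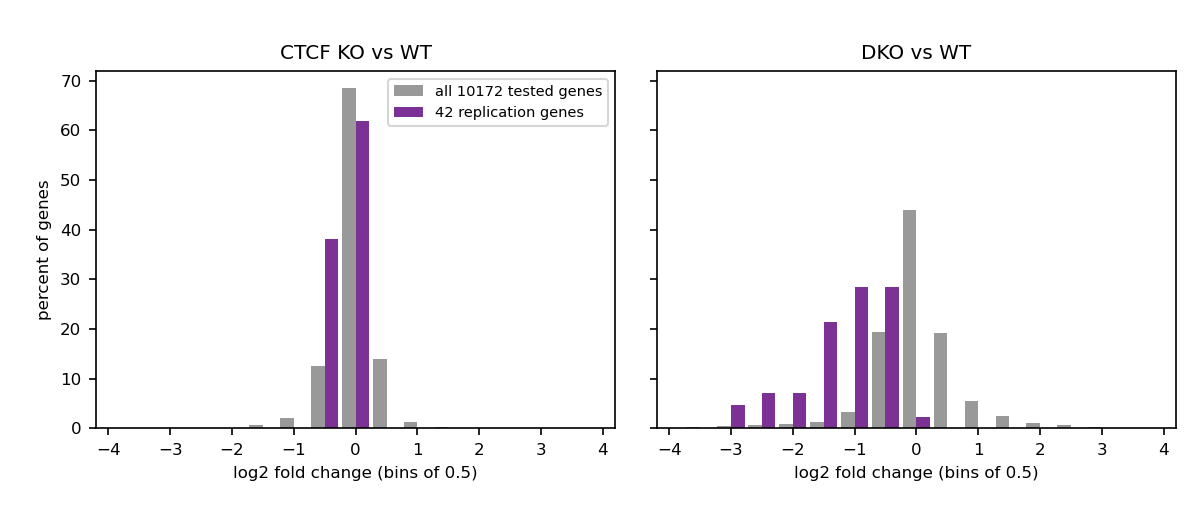
Percent of genes (vertical axis) in bins of 0.5 of the log2 fold change (horizontal axis) for all 10172 tested genes (grey) and the 42 replication genes (purple), in CTCF KO against WT (left) and DKO against WT (right); the outermost bins also hold everything beyond them. The replication genes occupy the bins around -0.5 and 0 in CTCF KO and spread from the bin around -3 to the bin around 0 in DKO, with 28.6% in each of the bins around -1 and -0.5.

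**Figure D2:**
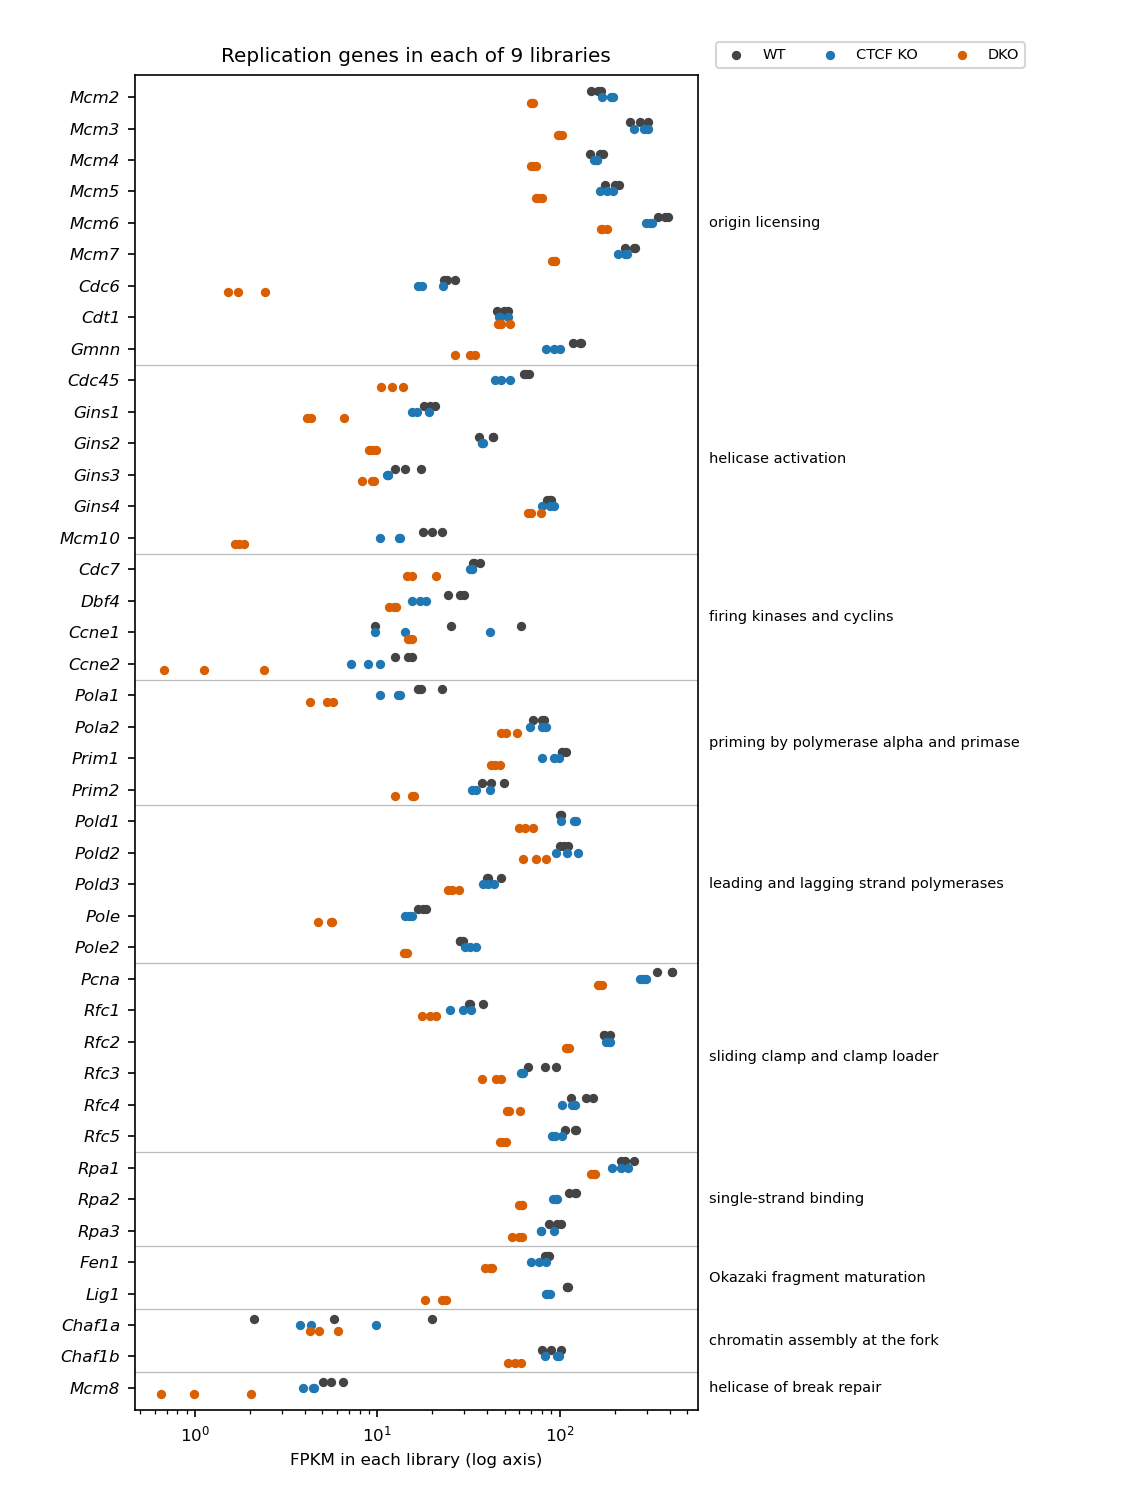
FPKM of each of the 42 replication genes (rows, grouped by role) on a log axis, with 1 point per library for WT (black), CTCF KO (blue) and DKO (orange). The DKO points lie to the left of the WT points in 39 rows; Cdt1 overlaps across groups, and Ccne1 and Chaf1a spread widely within WT and CTCF KO.

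Origin licensing depends on the Mcm2-7 ring, its loaders Cdc6 and Cdt1, and geminin (Gmnn), which binds Cdt1 and blocks it after the origin has fired. All 6 ring subunits fell in DKO, to between 36.5% (Mcm3) and 46.5% (Mcm6) of their WT means. Cdc6 and Gmnn fell further and Cdt1 was at 100.1% of its WT mean. In CTCF KO, Mcm6 and Gmnn fell and the other 7 licensing genes were not called.

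Mcm2 was at 162, 167 and 149 FPKM in the WT libraries, 170, 191 and 196 in CTCF KO, and 69.6, 70.4 and 71.5 in DKO. Every CTCF KO library was above, and every DKO library below, all of WT. The log2 fold change was -1.16 in DKO (SE 0.07, limma adjusted p = 1.87e-06) and 0.22 in CTCF KO (SE 0.07, adjusted p = 0.0758), where the gene passed the threshold with quantile normalization (adjusted p = 0.0172), with array weights (0.0445), with the window GC trend removed (0.0495) or without CTCF KO library 1 (0.0329). Mcm6, the most abundant ring subunit, was at 372 ± 24.1 FPKM in WT, 311 ± 11.3 in CTCF KO and 173 ± 7.05 in DKO. It fell in both groups, by 0.26 in CTCF KO (adjusted p = 0.0261) and by 1.10 in DKO (adjusted p = 1.16e-06) on the log2 scale.

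The remaining ring subunits fell in DKO and were not called in CTCF KO. Mcm3 was at 273 ± 30.7 FPKM in WT, 283 ± 24.7 in CTCF KO and 99.7 ± 2.52 in DKO. Mcm7 was at 247 ± 15.8, 223 ± 13.4 and 92.7 ± 1.68 FPKM in the same order of groups. Mcm5 was at 196 ± 16.4, 182 ± 14.1 and 76.5 ± 2.85, and Mcm4 at 162 ± 13.8, 158 ± 3.81 and 71.7 ± 2.15 FPKM. Their log2 fold changes in DKO lay between -1.44 for Mcm3 and -1.16 for Mcm4, a narrow range within the set.

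Cdc6, the ATPase that loads the ring, had the largest fall of the 42 genes in DKO. Its levels were 26.7, 24.1 and 23.3 FPKM in WT, 16.7, 22.8 and 17.6 in CTCF KO, and 1.72, 1.52 and 2.43 in DKO. All DKO libraries lay far below the others, and the DKO mean was 7.66% of the WT mean. The log2 fold change was -3.16 (SE 0.15, limma adjusted p = 4.6e-07), and only 0.462% of the tested genes had a lower value. In CTCF KO it was -0.37 (SE 0.15, adjusted p = 0.170), where the libraries also lay below all of WT without the call being made.

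Cdt1, which brings the ring to Cdc6, had 51.9, 49.7 and 45.4 FPKM in WT, 47.2, 51.8 and 46.5 in CTCF KO, and 47.9, 53.3 and 46.1 in DKO. The 3 groups overlapped. Its log2 fold change was 0.00 in DKO (95% interval from -0.19 to 0.19) and -0.02 in CTCF KO (from -0.20 to 0.17), so a fall of the size seen in Mcm2 lies outside the interval in DKO. The sign of the DKO value moved with the scaling, from -0.22 with the transcript GC trend removed to 0.03 with quantile normalization, and no setting gave a call.

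Gmnn was at 131, 130 and 119 FPKM in WT, 83.6, 92.6 and 101 in CTCF KO, and 32.3, 34.5 and 26.8 in DKO, with no overlap between any of the groups. Its log2 fold change was -0.45 in CTCF KO (SE 0.10, limma adjusted p = 0.0219) and -1.99 in DKO (SE 0.10, adjusted p = 7.46e-07). The ratio of Cdt1 to Gmnn RNA was 0.387 ± 0.00725 in WT, 0.528 ± 0.0588 in CTCF KO and 1.58 ± 0.123 in DKO. The groups did not overlap, and the exact permutation test against WT gave p = 0.1 for each mutant group, the smallest that 3 against 3 libraries allow. This ratio and the subunit shares given next were chosen after the values had been seen.

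The ring subunits fell together but not in equal measure. Summed over the 6 subunits, Mcm2-7 RNA was 1409 ± 105 FPKM in WT, 1343 ± 77.2 in CTCF KO and 584 ± 5.45 in DKO. Mcm6 made up 26.4 ± 0.375% of that sum in WT, 23.2 ± 0.605% in CTCF KO and 29.6 ± 1.05% in DKO, so its share moved in opposite directions in the mutant groups. Mcm2 made up 11.3 ± 0.389% in WT, 13.8 ± 0.318% in CTCF KO and 12.1 ± 0.278% in DKO. Mcm3 held 19.4 ± 0.903%, 21.0 ± 0.835% and 17.1 ± 0.433% in that order of groups. For Mcm6 and Mcm2 no mutant library overlapped the WT libraries (exact permutation p = 0.1 each), and for Mcm3 the CTCF KO libraries did overlap WT (p = 0.2).

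**Figure D3:**
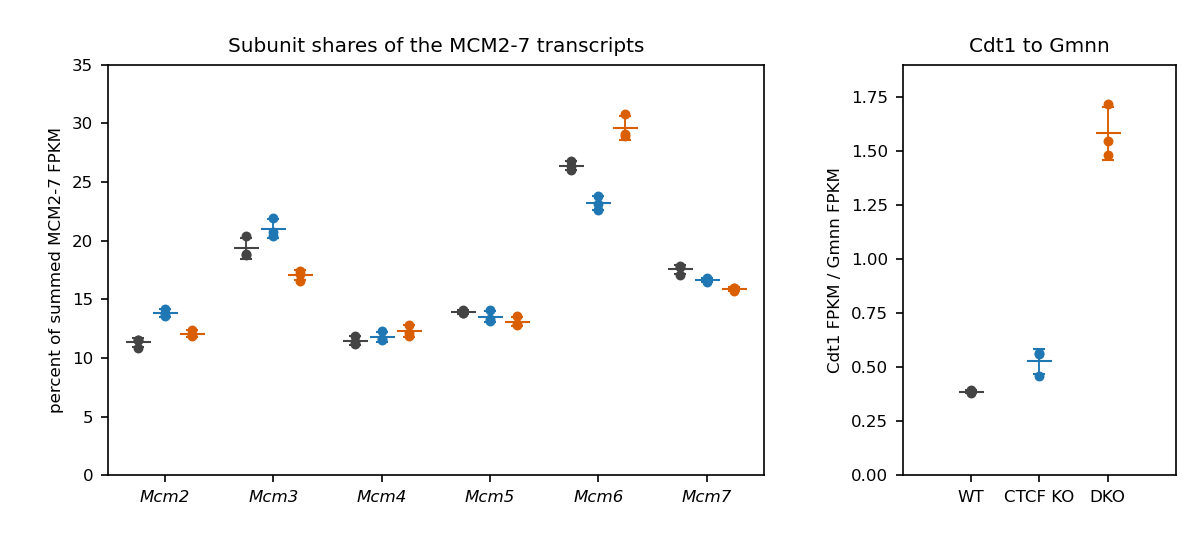
Left, share of each subunit in the summed Mcm2-7 FPKM (percent); right, ratio of Cdt1 to Gmnn FPKM; points are libraries of WT (black), CTCF KO (blue) and DKO (orange), with the mean and SD of 3 libraries as lines and bars. The Mcm6 share is 26.4% in WT, 23.2% in CTCF KO and 29.6% in DKO, and the ratio is 0.387, 0.528 and 1.58.

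The helicase becomes active when Cdc45 and the GINS complex (Gins1 to Gins4) join the Mcm2-7 ring and Mcm10 helps it to open the DNA. All 6 of these genes fell in DKO, and their losses ran over nearly the whole range of the set. Mcm10 and Cdc45 also fell in CTCF KO. Gins4 lost least, with 82.1% of its WT mean left in DKO.

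Mcm10 was at 20, 22.6 and 17.8 FPKM in WT, 10.3, 13.1 and 13.3 in CTCF KO, and 1.74, 1.66 and 1.85 in DKO. The 3 groups were fully apart. Its fall of 0.68 in CTCF KO (log2, SE 0.13, limma adjusted p = 0.00985) was the largest in size of the 42 genes there, and its log2 fold change in DKO was -2.94 (SE 0.13, adjusted p = 2.9e-07). Cdc45 was at 65.0, 67.7 and 63.4 FPKM in WT, 47.8, 44.1 and 53.1 in CTCF KO, and 13.8, 10.4 and 12 in DKO. These libraries did not overlap either, with log2 fold changes of -0.43 (adjusted p = 0.0291) and -2.35 (adjusted p = 2.9e-07).

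Within GINS, Gins2 and Gins1 lost most in DKO. Gins2 was at 40.7 ± 4.12 FPKM in WT, 37.6 ± 0.408 in CTCF KO and 9.38 ± 0.394 in DKO, a log2 fold change of -2.0 in DKO. Gins1 was at 19.4 ± 1.28, 17.1 ± 1.96 and 5.0 ± 1.34 FPKM, with a DKO log2 fold change of -1.79. Gins3 was at 14.6 ± 2.47, 11.4 ± 0.0958 and 9.04 ± 0.703 FPKM, and Gins4 at 87.7 ± 2.60, 87.2 ± 6.92 and 72.1 ± 6.30. The call of Gins4 in DKO (log2 fold change -0.28, SE 0.08, limma adjusted p = 0.0209) was lost when DKO library 1, DKO library 3, WT library 1 or WT library 2 was left out, with adjusted p of 0.0737, 0.0656, 0.0529 and 0.0692. It was also lost with no filter on low values (0.0647), and the q-value in the authors' deposited table was 0.251. Since the subunits fell unequally, the Gins4 share of the summed GINS FPKM was 54.0 ± 0.484% in WT, 56.8 ± 2.63% in CTCF KO and 75.4 ± 2.14% in DKO.

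Origins fire under Cdc7 with its activator Dbf4, which phosphorylate the Mcm ring, and under Cdk2 bound to cyclin E1 or E2 (Ccne1, Ccne2). Cdc7, Dbf4 and Ccne2 fell in DKO, and Dbf4 alone of the 4 was called in CTCF KO. Ccne2 was at 15.6, 12.6 and 14.7 FPKM in WT, 10.3, 7.14 and 8.90 in CTCF KO, and 1.12, 0.674 and 2.38 in DKO. No library overlapped between groups, and the DKO mean was 9.76% of WT. The log2 fold change was -2.73 in DKO (SE 0.24, limma adjusted p = 2.63e-05) and -0.65 in CTCF KO (SE 0.24, adjusted p = 0.124); in the authors' deposited table the q-value of the DKO comparison was 0.0757.

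Dbf4 was at 24.4, 29.8 and 28.5 FPKM in WT, 18.5, 15.6 and 17.2 in CTCF KO, and 12.7, 12.3 and 11.6 in DKO. The groups did not overlap. Its log2 fold change was -0.66 in CTCF KO (SE 0.10, limma adjusted p = 0.00336), the smallest adjusted p of the 42 genes there, and -1.11 in DKO (adjusted p = 3.41e-05). Its partner Cdc7 was at 34.7 ± 1.49 FPKM in WT, 32.8 ± 0.462 in CTCF KO and 17.0 ± 3.43 in DKO, with a log2 fold change of -0.08 in CTCF KO (adjusted p = 0.766) and -1.01 in DKO (adjusted p = 0.000193). The ratio of Dbf4 to Cdc7 was 0.798 ± 0.11 in WT, 0.522 ± 0.0507 in CTCF KO and 0.740 ± 0.166 in DKO. The CTCF KO libraries lay below all WT libraries in this ratio (exact permutation p = 0.1) and the DKO libraries overlapped them (p = 0.6).

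Ccne1 varied more within a group than between groups. It was at 9.66, 25.4 and 61.2 FPKM in WT, 41.3, 14.1 and 9.65 in CTCF KO, and 14.7, 14.9 and 15.5 in DKO. WT library 3 and CTCF KO library 1 were the highest, and all 3 groups overlapped. The log2 fold change in DKO was -0.69 (SE 0.63, limma adjusted p = 0.401) and was -0.06 without WT library 3. In CTCF KO it was -0.45 (adjusted p = 0.737), or 0.18 without WT library 3, although the q-value in the authors' deposited table was 0.0379. In DKO against CTCF KO it was -0.24, or 0.34 without CTCF KO library 1.

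Chaf1a, the large subunit of chromatin assembly factor 1, which places histones on new DNA behind the fork, had the same pattern as Ccne1. It was at 2.1, 5.76 and 20 FPKM in WT, 9.89, 4.34 and 3.79 in CTCF KO, and 4.28, 6.12 and 4.76 in DKO. The highest WT and the highest CTCF KO value again came from WT library 3 and CTCF KO library 1. The log2 fold change in DKO was -0.34 (SE 0.60, adjusted p = 0.674 in limma) and 0.39 without WT library 3. Its partner Chaf1b was steady within groups, at 90.0 ± 10.9 FPKM in WT, 92.8 ± 8.84 in CTCF KO and 56.7 ± 4.59 in DKO. In single libraries Chaf1b read 101, 89.1 and 79.6 in WT, 82.8, 99.3 and 96.5 in CTCF KO, and 52.2, 61.4 and 56.5 in DKO, below every WT library. It fell by 0.65 in DKO on the log2 scale (SE 0.11, limma adjusted p = 0.00118).

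Ccne1 and Chaf1a were also the genes of the set with the most GC-rich stretches, with a highest 100-base window of 83% and 85% GC. Dbf4 followed with 81%, and the other 39 genes had at most 79%. In WT and in CTCF KO both genes followed the order of the libraries on the GC-rich index given above, but not in DKO. There the index was highest, and both genes lay within the range of the WT libraries. With the trend on window GC removed, the DKO log2 fold change of Ccne1 was -1.30 (limma adjusted p = 0.0420) and that of Chaf1a was -1.05 (adjusted p = 0.0719). In the authors' deposited table the q-values of the DKO comparison were 0.000488 for Ccne1 and 0.00450 for Chaf1a. The part that GC content has in these values was not tested.

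**Figure D4:**
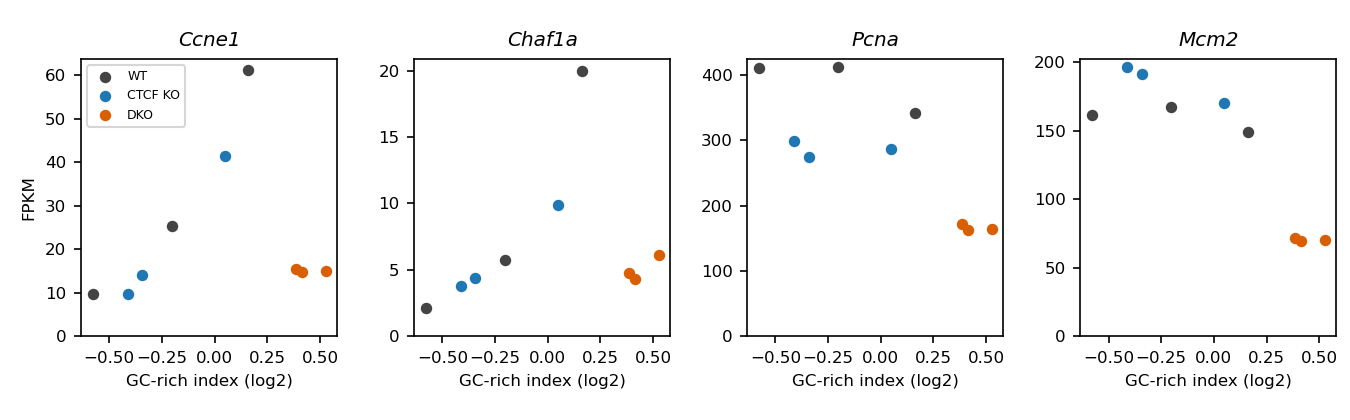
FPKM of Ccne1, Chaf1a, Pcna and Mcm2 (vertical axes) against the GC-rich index of each library (horizontal axes, log2), with 1 point per library of WT (black), CTCF KO (blue) and DKO (orange). Within WT and within CTCF KO, Ccne1 and Chaf1a are highest in the library with the highest index (WT library 3 at 0.16, CTCF KO library 1 at 0.05), while in WT Pcna and Mcm2 are lowest in library 3.

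New strands are primed by polymerase alpha (Pola1, the catalytic subunit, and Pola2) with primase (Prim1, which makes the RNA primer, and Prim2). All 4 genes fell in DKO, and Pola1 also fell in CTCF KO. Pola1 was at 22.7, 17.4 and 16.7 FPKM in WT, 13.0, 10.4 and 13.4 in CTCF KO, and 5.68, 4.28 and 5.27 in DKO. No group overlapped another. The log2 fold change was -0.59 in CTCF KO (SE 0.15, limma adjusted p = 0.0384) and -1.71 in DKO (SE 0.15, adjusted p = 2.89e-05).

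Prim2 was at 49.4, 42.2 and 37.7 FPKM in WT, 33.2, 41.5 and 34.9 in CTCF KO, and 15.6, 15.9 and 12.5 in DKO. WT and CTCF KO overlapped, and DKO lay below both, with a log2 fold change of -1.50 (SE 0.13, limma adjusted p = 2.75e-05). Prim1 was at 104 ± 2.71 FPKM in WT, 90.9 ± 9.86 in CTCF KO and 44.6 ± 2.56 in DKO. Pola2 lost least of the 4, at 77.7 ± 5.93, 77.3 ± 7.87 and 52.2 ± 5.32 FPKM. Its share of the summed polymerase alpha and primase FPKM was 31.8 ± 0.975% in WT, 35.6 ± 0.835% in CTCF KO and 44.8 ± 3.6% in DKO, with no overlap between WT and either mutant group (exact permutation p = 0.1 each).

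Polymerase epsilon (Pole, catalytic, and Pole2) extends the leading strand and polymerase delta (Pold1, catalytic, with Pold2 and Pold3) the lagging strand. All 5 genes fell in DKO and none was called in CTCF KO. Pole was at 18.5, 16.8 and 17.8 FPKM in WT, 15.0, 15.4 and 14.2 in CTCF KO, and 4.75, 5.60 and 5.66 in DKO. The groups were apart, with a log2 fold change of -1.56 in DKO (SE 0.10, limma adjusted p = 2.68e-06) and -0.24 in CTCF KO (SE 0.10, adjusted p = 0.169). Pole2 was at 28.3, 29.3 and 28.5 FPKM in WT, 34.8, 30.3 and 32.0 in CTCF KO, and 14, 14.1 and 14.5 in DKO. Here CTCF KO lay above all of WT and DKO below it, at log2 fold changes of 0.17 (SE 0.08, adjusted p = 0.209) and -0.97 (SE 0.08, adjusted p = 1.15e-05).

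The catalytic subunit took a smaller share of the epsilon pair in both mutant groups: Pole made up 38.1 ± 1.59% of the summed FPKM in WT, 31.5 ± 1.94% in CTCF KO and 27.3 ± 1.68% in DKO (exact permutation p = 0.1 against WT for each). The delta genes had smaller changes than Pole. Pold1 was at 101 ± 0.333 FPKM in WT, 115 ± 11.2 in CTCF KO and 65.2 ± 5.79 in DKO. Pold2 was at 106 ± 5.65, 111 ± 15.7 and 73.6 ± 10.5 FPKM, and Pold3 at 42.6 ± 4.34, 40.6 ± 2.67 and 26.0 ± 1.79. Their DKO log2 fold changes lay between -0.69 for Pold3 and -0.52 for Pold2, and the shares of Pold1, Pold2 and Pold3 in their sum overlapped between WT and DKO.

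The sliding clamp PCNA (Pcna) holds the polymerases on DNA and is loaded by the RFC complex, in which Rfc1 is the large subunit. All 6 genes fell in DKO, and Pcna and Rfc5 also fell in CTCF KO. Pcna, the most abundant RNA of the set in WT, was at 412, 412 and 342 FPKM in WT, 286, 274 and 298 in CTCF KO, and 163, 165 and 171 in DKO. The 3 groups did not overlap. It fell by 0.43 in CTCF KO (SE 0.08, limma adjusted p = 0.00586) and by 1.21 in DKO (SE 0.08, adjusted p = 2.57e-06) on the log2 scale.

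Among the loader subunits Rfc4 and Rfc5 lost most in DKO. Rfc4 was at 152, 139 and 115 FPKM in WT, 103, 117 and 121 in CTCF KO, and 51.2, 52.9 and 60.3 in DKO, where it lay below the overlapping values of the other groups (log2 fold change -1.28, SE 0.11, limma adjusted p = 2.35e-05). Rfc5 was at 123, 121 and 107 FPKM in WT, 91.3, 93.7 and 103 in CTCF KO, and 47.0, 50.5 and 48.4 in DKO, with no overlap. It fell by 0.28 in CTCF KO (adjusted p = 0.0365) and by 1.25 in DKO (adjusted p = 1.77e-06) on the log2 scale. Rfc3 was at 82.0 ± 13.9 FPKM in WT, 62.2 ± 0.459 in CTCF KO and 43.2 ± 5.39 in DKO, and in CTCF KO it was called without WT library 3 (adjusted p = 0.0210) but not with it (0.0915). Rfc1 was at 34.1 ± 3.44, 29.1 ± 3.85 and 19.3 ± 1.65 FPKM. Rfc2 was at 179 ± 7.78, 185 ± 4.44 and 110 ± 1.89 FPKM, and its share of the summed RFC FPKM was 32.8 ± 2.01% in WT, 38.1 ± 1.0% in CTCF KO and 39.9 ± 1.23% in DKO.

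Replication protein A (Rpa1 to Rpa3) covers the exposed DNA strand at the fork. Its 3 genes fell in DKO by less than most of the set, and Rpa2 fell in CTCF KO. Rpa2 was at 121, 124 and 112 FPKM in WT, 95, 92.4 and 97.0 in CTCF KO, and 60.1, 62.3 and 62.0 in DKO. The groups were apart, with log2 fold changes of -0.32 (SE 0.06, limma adjusted p = 0.00572) and -0.94 (SE 0.06, adjusted p = 1.95e-06); the authors' deposited table gave a q-value of 0.0867 for CTCF KO. Rpa3 was at 102, 96.5 and 87.4 FPKM in WT, 93.3, 78.6 and 79.2 in CTCF KO, and 60.1, 54.9 and 61.9 in DKO, with overlap between WT and CTCF KO and a DKO log2 fold change of -0.68 (adjusted p = 0.000329). Rpa1 was at 233 ± 20.8 FPKM in WT, 216 ± 22.3 in CTCF KO and 153 ± 4.09 in DKO.

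Lagging-strand pieces are trimmed by the flap nuclease Fen1 and sealed by DNA ligase 1 (Lig1). Both fell in DKO, and Lig1 also fell in CTCF KO. Lig1 was at 110, 109 and 111 FPKM in WT, 85.0, 83.7 and 88.1 in CTCF KO, and 22.5, 23.8 and 18.2 in DKO. The groups did not overlap, and the log2 fold change was -0.36 in CTCF KO (SE 0.09, limma adjusted p = 0.0350) and -2.31 in DKO (SE 0.09, adjusted p = 1.39e-07), the smallest adjusted p of the set. Fen1 was at 86.7, 87.7 and 83.0 FPKM in WT, 69.8, 83.9 and 77.4 in CTCF KO, and 42.4, 41.3 and 38.7 in DKO. WT and CTCF KO overlapped, and the DKO log2 fold change was -1.06 (SE 0.08, adjusted p = 6.53e-06).

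Mcm8 is a relative of the ring subunits that acts with Mcm9 in the repair of broken DNA rather than in licensing, and it was the least abundant gene of the set. It was at 5.06, 6.49 and 5.57 FPKM in WT, 4.50, 3.91 and 4.43 in CTCF KO, and 0.648, 2.03 and 0.985 in DKO. The groups did not overlap, with log2 fold changes of -0.34 in CTCF KO (SE 0.21, limma adjusted p = 0.361) and -1.64 in DKO (SE 0.21, adjusted p = 0.000292). The scale of log2(FPKM + 1) understates folds at such levels.

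**Figure D5:**
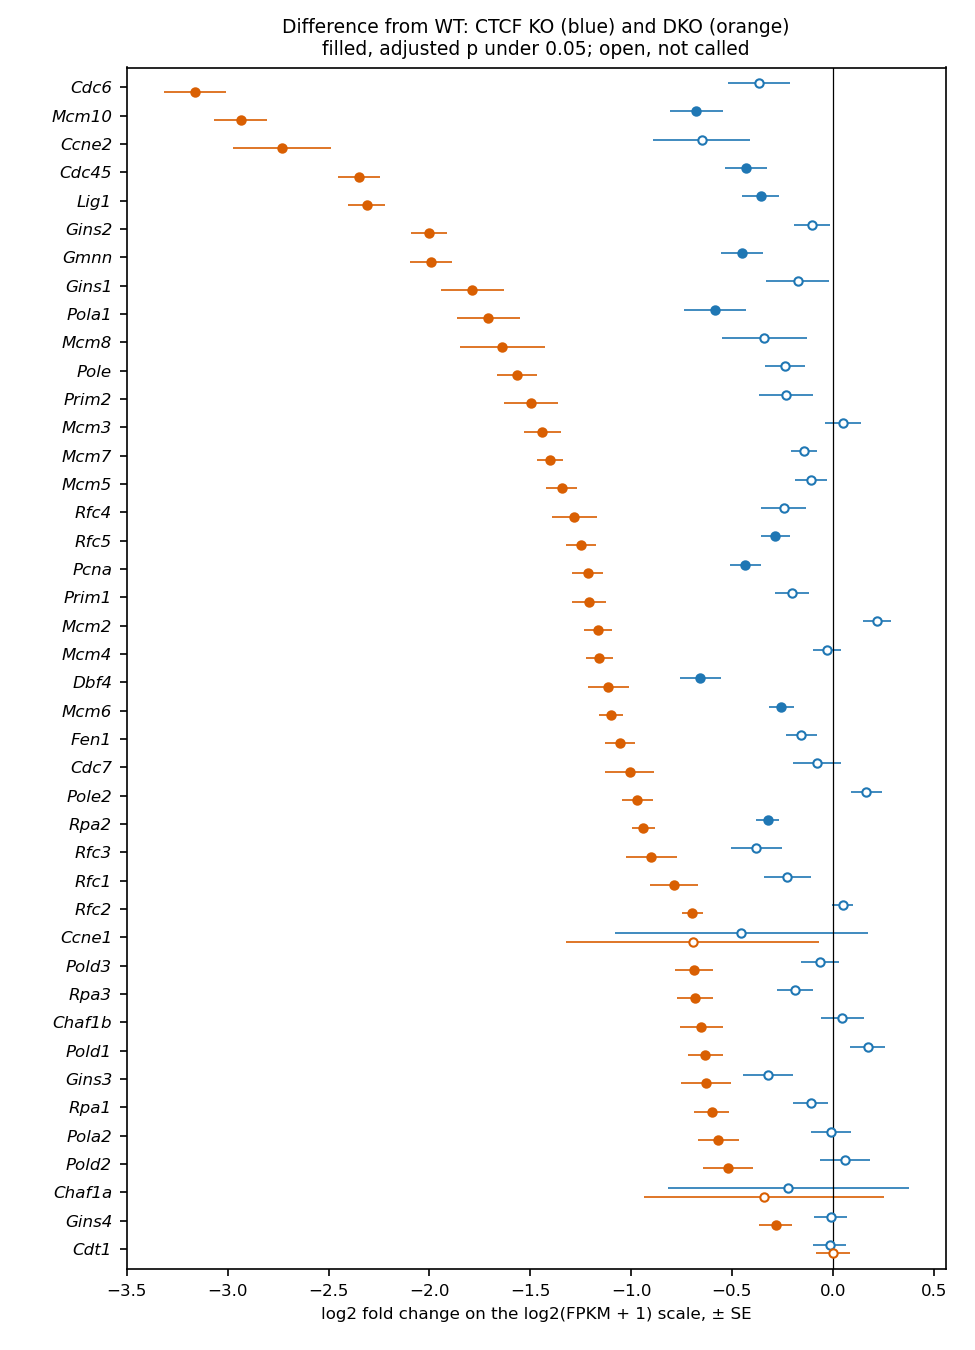
Log2 fold change against WT on the log2(FPKM + 1) scale, with the SE as bars (horizontal axis), for the 42 genes ordered by their DKO value (rows); blue is CTCF KO and orange DKO, and filled points have an adjusted p under 0.05. Cdc6, Mcm10 and Ccne2 have the largest DKO losses (-3.16, -2.94 and -2.73), and Cdt1 lies at 0.00.

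Summed over all 42 genes, the set amounted to 4190 ± 241 FPKM in WT, 3759 ± 164 in CTCF KO and 1963 ± 35.5 in DKO, without overlap between WT and either mutant group (exact permutation p = 0.1 each). By level, Pcna, Mcm6 and Mcm3 ranked 1, 2 and 3 in WT, Mcm6, Pcna and Rpa1 ranked 1, 2 and 3 in DKO, and Mcm8 ranked 42 in both. Cdt1 ranked 25 in WT and 18 in DKO, and Lig1 ranked 14 and 25. On the chromosomes of the deposited table, 8 of the 42 genes lay on chromosome 5 (19%, against 6.57% of tested genes). Chromosome 8 held 5 (11.9%, against 5.39%). Chromosomes 16, 7 and 2 held 4 each (9.52%, against 3.16%, 7.58% and 7.76%).

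A wider list of 33 other replication genes, outside the 42, moved less uniformly. In DKO 21 of the 33 fell and 4 rose, beside the 21.9% and 18.5% of all tested genes, with a median log2 fold change of -0.63. In CTCF KO 8 fell and none rose, beside 6.37% and 5.78%, with a median of -0.16. Against CTCF KO, 18 were lower and 4 higher in DKO, beside 21.8% and 16.2%. The 4 called in DKO with the smallest adjusted p were Asf1b, a histone chaperone, Tipin of the fork protection complex, Dtl, which marks Cdt1 for degradation during S phase, and Dna2, a nuclease of lagging-strand pieces. Asf1b was at 204, 184 and 160 FPKM in WT, 109, 101 and 108 in CTCF KO, and 27.9, 24.9 and 21.3 in DKO, and fell in both groups (log2 fold changes -0.78 and -2.84). Tipin was at 193 ± 8.18 FPKM in WT, 164 ± 6.70 in CTCF KO and 79.7 ± 3.39 in DKO, and also fell in both. Dtl was at 26.5 ± 1.18, 22.5 ± 1.54 and 2.75 ± 0.871 FPKM and fell in DKO (log2 fold change -2.90). Dna2 was at 4.55 ± 0.280, 2.33 ± 0.345 and 0.509 ± 0.0945 FPKM and fell in both groups.

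The 4 that rose in DKO were Donson, a fork protein, Mcmbp, an Mcm-binding protein, Topbp1, a scaffold of origin firing and checkpoint signalling, and Mcm9, the partner of Mcm8. Donson was at 0.545, 0.845 and 12.2 FPKM in WT, 4.07, 1.44 and 1.88 in CTCF KO, and 29.2, 44.9 and 25.2 in DKO (log2 fold change 3.30, limma adjusted p = 0.00539). Topbp1 was at 5.36, 5.07 and 12.4 in WT, 6.98, 5.86 and 5.67 in CTCF KO, and 16.6, 28.7 and 15.1 in DKO (1.34, adjusted p = 0.00919). Mcmbp had means of 12.9 ± 4.47, 11.3 ± 1.9 and 39.5 ± 18.1 FPKM (1.5, adjusted p = 0.00410), and Mcm9 of 0.741 ± 0.185, 0.629 ± 0.351 and 3.38 ± 2.68 (1.17, adjusted p = 0.0267). Mcm9 was below 1 FPKM in every WT and CTCF KO library. It passed the filter only through the DKO libraries, so its call as higher there was partly set by the filter. Without WT library 3 the log2 fold change was 4.29 for Donson and 1.71 for Topbp1, and without WT library 2 Mcm9 was no longer called (adjusted p = 0.0813). With no filter on low values the calls of Mcm9 (limma adjusted p = 0.128) and Topbp1 (0.0627) were lost. Those of Donson (0.0477) and Mcmbp (0.0364) were kept. In the authors' deposited table the q-value was 0.202 for Mcm9 and 0.000488 for Donson, Mcmbp and Topbp1. DKO library 2 was the highest for each of the 4, and their highest GC windows were 85, 85, 88 and 87% for Donson, Mcmbp, Topbp1 and Mcm9. With the window GC trend removed, their log2 fold changes in that order were 2.59, 0.79, 0.60 and 0.44, with adjusted p of 0.00469, 0.0110, 0.0374 and 0.30 in limma.

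Replication genes and mitotic genes differed in how far they fell. Of 12 mitotic genes (among them Mki67, Cdk1 and Plk1), all 12 fell in each of the 3 comparisons. Of all tested genes, 6.37% were called lower in CTCF KO, 21.9% in DKO and 21.8% in DKO against CTCF KO. The median log2 fold changes of the mitotic genes were -1.28 in CTCF KO, -3.69 in DKO and -2.18 in DKO against CTCF KO, beside -0.21, -1.14 and -0.95 for the 42 replication genes. Summed, the mitotic genes lay between 1133 and 1247 FPKM in WT, 429 and 462 in CTCF KO and 85.4 and 88.9 in DKO. These lists were not tested against each other.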

How the data were processed

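RNA-seq of 9 libraries of sorted mouse CD8 T cells was analysed from the deposited table of 23946 genes, which holds FPKM for each library and the p-values and q-values of the authors' comparisons. Per the submitters' processing notes, the tools were FastQC, TopHat2 2.1.0 and Cuffdiff 2.2.1, and the builds mm9 and mm10; library scaling, annotation and strandedness are not given in the sources used here, so reads of overlapping genes cannot be told apart. Of 22655 genes matched by symbol, 927 started within 1000 bases of their GRCm38 start (5 of the 42 members), so no positions of the table are printed; chromosome names are its own. RefSeq promoters are on GRCm38.p6.

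Group labels came from the source names. Columns of CTCF KO and WT were matched to their samples, and DKO columns only to their group, because the labels number those libraries differently. A gene was kept if 3 or more libraries had 1 FPKM or more (10172 genes). A model with 1 mean per group over all 9 libraries was fitted to log2(FPKM + 1) with limma 3.58.1 in R 4.3.3 (intensity trend, two-sided, Benjamini-Hochberg over all tested genes, called under 0.05), after being tested on simulated data. FPKM carry no depth, so no count test or counting interval was possible. Ratios and shares were compared by exact two-sided permutation tests, which cannot go below 0.1 with 3 against 3 libraries. The labels do not say that libraries came from separate animals, so p-values reflect only how far these libraries spread, which may be technical. The members and lists were chosen with earlier results of these data known. Within each role, per-library values are given for the 2 genes with the largest absolute change in DKO against WT, for Mcm2, Pcna, Cdc6, Cdt1 and Gmnn, and for genes not called lower in DKO; of the other replication genes, the 4 with the smallest adjusted p in DKO and all that rose are named. GC content came from GENCODE transcripts, which covered 95.5% of tested genes. Alternatives were another pseudocount, filters, scalings, variance models, GC corrections, the authors' q-values, leaving out each library, and a replicate block; removal of the window GC trend was chosen after seeing the data.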

Additional observations from a re-analysis of the deposited data

How the results depend on the processing

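The DKO results kept their direction and nearly their counts: 37 to 40 genes were lower than WT and 34 to 39 lower than CTCF KO under all alternatives run, and none was called higher in either. The median in DKO against WT moved from -1.14 to -1.06 with quantile normalization, -1.20 with median centring or with array weights and -1.07 with the window GC trend removed; against CTCF KO it moved from -0.95 to -1.02 with median centring, -1.0 with the transcript GC trend removed and -0.89 with the window GC trend removed. The CTCF KO count of 10 lower genes was 4 with no filter, 4 with median centring, 6 with the transcript GC trend removed, 14 with array weights and 4 to 9 when a library was left out. Mcm2 was called higher in CTCF KO, giving a count of 1, with quantile normalization, array weights and the window GC trend removed, and the count ran from 0 to 1 when a library was left out. Fitting the replicate number as a block gave 0 lower genes in CTCF KO with the same median of -0.21. Whether the numbers pair the libraries is not known. Same-numbered deviations from the group means correlated at -0.62, 0.16 and -0.45. These values cannot decide the question, because the deviations of 3 libraries from their own mean depend on each other. For DKO no paired analysis was possible because its columns carry no sample's number. In every setting run but the block, Dbf4, Mcm10 and Pcna stayed lower in CTCF KO. The causes were not tested.

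Signs that turned belonged to genes that were not called. In CTCF KO these were Mcm4 (0.018), Cdt1 (0.0063), Gins4 (0.0044) and Pola2 (0.0088) with quantile normalization, Pold3 (0.0053) with array weights, and Mcm4 (0.025) and Pold2 (-0.011) with the transcript GC trend removed. Leaving out a library gave CTCF KO ranges of -0.068 to 0.026 for Cdt1, -0.058 to 0.053 for Gins4, -0.072 to 0.074 for Pola2, -0.041 to 0.16 for Pold2, -0.037 to 0.13 for Chaf1b, -0.033 to 0.13 for Mcm3, -0.87 to 0.51 for Chaf1a, -0.11 to 0.018 for Pold3, -0.10 to 0.021 for Mcm4 and -1.10 to 0.18 for Ccne1. Cdt1 in DKO against WT was -0.062 with median centring, -0.039 with array weights, -0.22 with the transcript and -0.055 with the window GC trend removed, and -0.059 to 0.045 without a library; Chaf1a ran from -0.99 to 0.39. In DKO against CTCF KO, Cdt1 was -0.053, -0.0078, -0.13 and -0.033 under the same 4 settings and -0.043 to 0.064 without a library, Ccne1 ran from -0.66 to 0.34 and Chaf1a from -0.35 to 0.25. Depth is unknown, so the error of low genes such as Mcm8 cannot be given from counts.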
